A study of Mus musculus with 6 samples.

Results

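The set described here holds 10 genes that macrophages use to act on blood vessels. They are the VEGF family ligands Vegfa, Vegfb, Vegfc and Pgf, the PDGF ligands Pdgfa and Pdgfb, the EGF family ligand Hbegf, the neuropilin co-receptors Nrp1 and Nrp2, and the matrix protein Thbs1. The members were chosen by symbol, with earlier results of these data known, so the counts of called genes are descriptions. Each symbol was matched through Gencode names to 1 of the 54446 gene IDs in the table of counts. Positions are those of Gencode on GRCm38. All 10 were found, all are protein-coding, and all 10 passed the filter of at least 10 counts in at least 1 library.

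The libraries came from bone marrow-derived macrophages (BMDMs) of male BALB/c mice aged 6 to 8 weeks, grown for 7 days in medium with 20% L929-conditioned medium. The cells stayed unpolarized (M0), received 20 ng/mL IFN-γ together with 50 ng/mL LPS for 24 h (M1), or received IL4 at 20 ng/mL for 24 h (M2). Each state was sequenced as a control library, with DMSO named by the labels as the vehicle, and as a library with regorafenib. Regorafenib, a multikinase inhibitor of VEGF receptors and other kinases, was given at 1 µM, for M1 and M2 1 h before polarization. The study describes this timing for polarized cells only. When M0 cells received the drug, and for how long, is not given there. There was 1 library for each of the 6 conditions, so no difference between a pair of libraries has a replicate check, and the intervals given here cover counting error only. The labels name no mutation or transgene for these cells, and the sources used here do not say whether cells of several mice were pooled.

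VEGFA drives the growth and leakiness of blood vessels through the receptors FLT1 and KDR, and PGF and VEGFB bind FLT1. VEGFC acts mainly on lymphatic vessels through FLT4, and the PDGF ligands recruit pericytes and smooth muscle cells. Neuropilins bind VEGF ligands and class 3 semaphorins at the cell surface, HBEGF activates the EGF receptor, and thrombospondin 1 inhibits angiogenesis through CD36 and CD47. Macrophages are a known source of VEGFA in tumors and wounds, where hypoxia-inducible factors and inflammatory signals raise its transcription.

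The start regions of the VEGF ligands are shown because ligands of this family followed polarization in opposite directions. Each run holds the 250 bases before the RefSeq start on GRCm38.p6, read 5′ to 3′ on the strand of the gene, with capitals where the GC box GGGCGG matched on either strand. The window of Vegfa lies at chr17:46032378-46032627 on the minus strand, Vegfb at chr19:6987652-6987901 on the minus strand and Vegfc at chr8:54077282-54077531 on the plus strand. The windows end 8, 0 and 74 bases before the Gencode start of their gene, so they lie upstream of it.
Vegfa: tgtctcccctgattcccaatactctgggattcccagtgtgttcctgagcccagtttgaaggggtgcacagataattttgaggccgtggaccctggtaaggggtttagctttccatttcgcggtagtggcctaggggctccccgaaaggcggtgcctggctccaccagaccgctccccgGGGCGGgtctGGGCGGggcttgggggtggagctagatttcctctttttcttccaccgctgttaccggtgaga
Vegfb: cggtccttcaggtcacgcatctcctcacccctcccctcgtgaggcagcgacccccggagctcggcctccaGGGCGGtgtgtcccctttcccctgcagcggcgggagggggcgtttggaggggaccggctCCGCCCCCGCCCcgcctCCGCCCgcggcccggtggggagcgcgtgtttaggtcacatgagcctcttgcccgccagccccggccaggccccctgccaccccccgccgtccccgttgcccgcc
Vegfc: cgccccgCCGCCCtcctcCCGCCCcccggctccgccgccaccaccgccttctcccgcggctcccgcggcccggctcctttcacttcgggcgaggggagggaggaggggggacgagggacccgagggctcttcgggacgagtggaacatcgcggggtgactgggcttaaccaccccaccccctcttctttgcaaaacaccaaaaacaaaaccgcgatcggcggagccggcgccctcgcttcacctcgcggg
The GC box matched 2 times before Vegfa, 4 times before Vegfb and 2 times before Vegfc. RefSeq start regions were matched for 7 of the 10 members (Vegfa, Vegfb, Vegfc, Pgf, Pdgfa, Nrp1 and Nrp2). The RefSeq starts used for Pgf, Pdgfa and Nrp1 lie 477, 2426 and 469 bases past the Gencode start, so these windows lie inside the gene. That of Nrp2 lies 32 bases past it, so its window lies partly inside. Each of the 7 windows held at least 1 GC box, against 32.7% of 32851 mouse start regions of the same length. The other motifs searched on both strands were the AP-1 site TGANTCA, the CRE core TGACG, the HIF core ACGTG, the GAS element TTCNNNGAA and the TATA box TATAAA. Pdgfa held 1 CRE core, which 17.8% of all start regions hold, and the other motifs were not found in the 7 windows. Their shares among all start regions were 6.75% for the AP-1 site, 16.6% for the HIF core, 7.02% for the GAS element and 12.4% for the TATA box. The GC content of the 7 windows ran from 59.2% for Vegfa to 76.4% for Vegfb, against a median of 52.4% over all start regions. A match describes letters in a window, and binding was not measured.

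The libraries held between 25359309 and 34898342 counts. Levels are given in CPM, the counts scaled to a common library size, after adjustment with TMM, whose factors ran from 0.82 to 1.12, with the 2 M1 libraries at 0.82 and 0.844. The labels of polarization were checked with 5 genes that respond to IFN-γ and LPS, with a summed level of 12649 to 18718 CPM in M1 and at most 110 CPM elsewhere, and with 5 genes that respond to IL4, with 648 to 1297 CPM in M2 and at most 33.9 CPM elsewhere. The 10 macrophage markers summed to 22288 to 49477 CPM with Lyz2 the highest. For M1 against M0 in control 3 of them were called higher and 2 lower, beside 34.1% of all genes. Adgre1 and Mertk were among the higher, and Cx3cr1 and Cd68 were the lower. Of 11 endothelial markers, 5 passed the filter, their sum stayed between 11.4 and 39.7 CPM with Kdr the highest, and Cldn5, Robo4 and Sox17 were at 3 or fewer counts in all 6 libraries. Single markers of that list moved apart for M1 against M0 in control, where Pecam1 went from 6 to 307 counts and Esam from 5 to 85, both called higher, and Kdr and Tie1 were called lower. Fibroblast markers, whose sum was higher with regorafenib in all 3 states, summed to between 12 and 33.9 CPM with Pdgfrb the highest, and neutrophil markers to between 98.6 and 210 CPM with Mpo the highest. For M1 against M0 in control, 3 of 9 fibroblast markers were called higher and 1 lower, and 3 of 5 neutrophil markers higher and 0 lower, beside 34.1% of all genes. The fibroblast marker Dcn went from 4 to 100 counts and was called higher, while Thy1 went from 14 to 3 and was called lower. The neutrophil marker S100a8 went from 123 to 1804 counts and was called higher, while S100a9 had 2 and 3 counts. Ly6g, Elane, Ngp, Ltf and Prtn3 were at 3 or fewer counts in all 6 libraries. Dendritic cell markers, led by Ccr7, summed to 32.1 and 39 CPM in M1 and to at most 2.54 CPM elsewhere, with Flt3, Clec9a and Siglech at 3 or fewer counts in all 6 libraries, and the part of these marker genes in the M1 values was not tested.

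**Figure D1:**
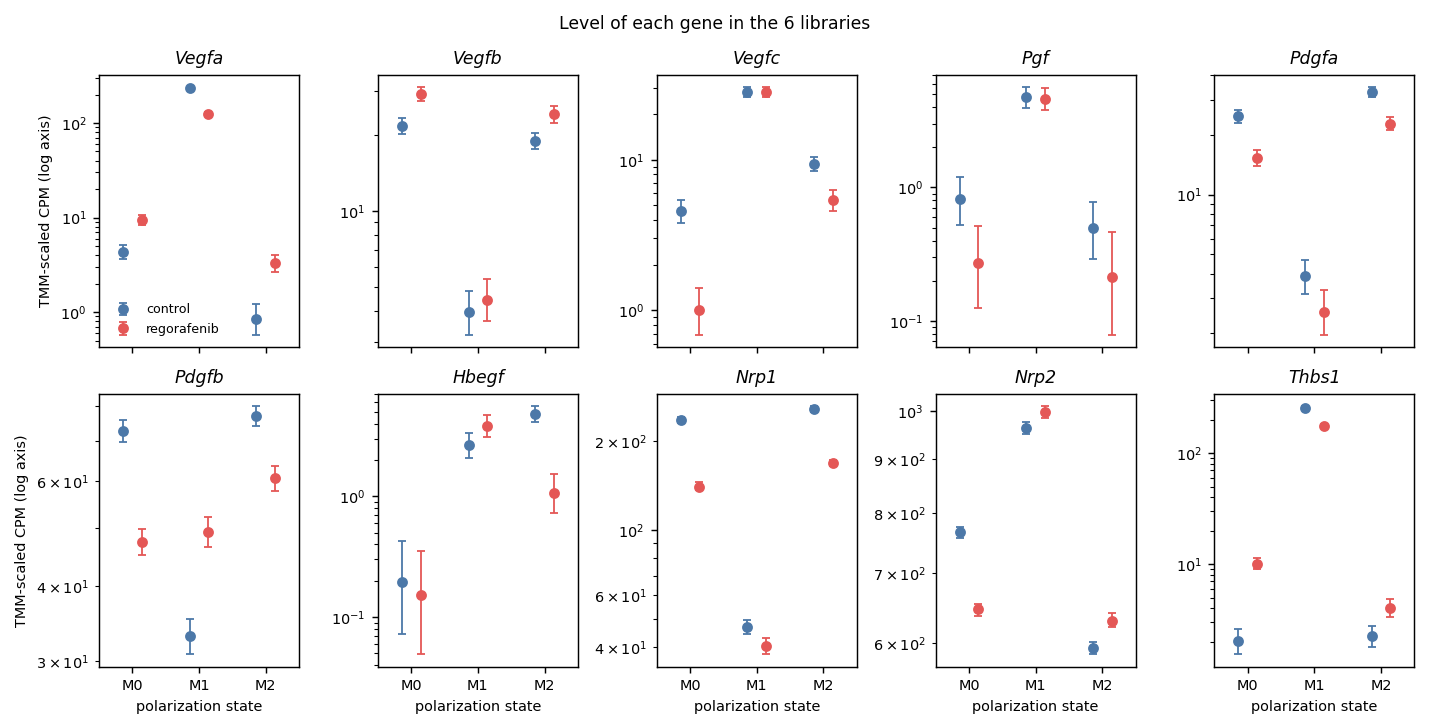
Level of each of the 10 genes in the 6 libraries, in TMM-scaled CPM on a log axis that differs between panels, with blue points for control and red points for regorafenib and bars for the 95% exact Poisson interval. Vegfa and Thbs1 stand highest in the M1 libraries, Vegfb, Pdgfa and Nrp1 stand lowest there, and Nrp2 lies between 594 and 999 CPM throughout.

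Polarization with IFN-γ and LPS was compared with M0 first, which shows how the set followed the state before the drug is considered. A gene was called where the ratio of scaled counts was at least 2-fold and its 95% counting interval left out no change. In control cells 9 of the 10 genes were called, 5 higher and 4 lower, beside 34.1% of 14917 genes called in this comparison. With regorafenib in both libraries 8 genes were called, 5 higher and 3 lower, beside 34.7% of all genes. The median log2 ratio of the 10 genes was 1.44 in control and 2.18 with regorafenib, against -0.05 and -0.09 over all genes tested. Scaling by total counts instead of TMM moved the median of all genes to -0.49 and -0.50, and lowered the share of called genes that were higher from 47.3% to 29.3% in control and from 44.2% to 27.7% with regorafenib.

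Vegfa (chr17:46016993-46032369, minus strand) had 134 counts in M0 control and 312 in M0 with regorafenib, 6070 and 3026 in M1, and 31 and 92 in M2. Scaled, these were 4.36 and 9.46 CPM in M0, 235 and 126 CPM in M1 and, in M2, 0.849 and 3.29 CPM. Both M1 libraries stood far above the other 4, and both M2 libraries were the lowest. M1 exceeded M0 by a log2 ratio of 5.75 (95% interval 5.50 to 6.01), a 53.9-fold difference, in control and 3.73 (3.56 to 3.90), a 13.3-fold difference, with regorafenib. For M2 to M0 it was -2.36 (-2.97 to -1.79) in control and -1.52 (-1.88 to -1.19) with regorafenib. Every neighbouring pair in the order of the 6 levels of Vegfa differed beyond its counting interval.

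Vegfb (chr19:6982473-6987651, minus strand), a ligand of FLT1, went the other way in M1. It had 669 and 962 counts in M0 control and M0 with regorafenib, 102 and 107 in M1 and, in M2, 693 and 676. The M1 libraries were the lowest and did not differ from each other beyond counting error, at 3.95 and 4.44 CPM. Against M0 the log2 ratio of M1 was -2.46 (-2.78 to -2.16) in control and -2.72 (-3.02 to -2.43) with regorafenib. In M2 the ratio to M0 was -0.20 in control and -0.27 with regorafenib, both under the 2-fold limit.

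Vegfc (chr8:54077606-54187096, plus strand) had 140 and 33 counts in M0, 729 and 682 in M1 and, in M2, 343 and 151. Each such pair gives control before regorafenib. These are 4.56 and 1 CPM in M0, 28.2 and 28.3 CPM in M1 and, in M2, 9.39 and 5.4 CPM. Vegfc was therefore highest in M1, intermediate in M2 and lowest in M0, in both arms. In M1 the log2 ratio to M0 was 2.63 (2.37 to 2.90) in control and 4.82 (4.32 to 5.37) with regorafenib, and that of M2 to M0 was 1.04 (0.76 to 1.34) and 2.43 (1.88 to 3.02). The M2 difference in control lies at the limit of the 2-fold rule and was 0.95 with scaling by total counts and 0.90 with 1 CPM added to both values.

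Pgf (chr12:85166635-85177790, minus strand), the placental growth factor, was the lowest VEGF ligand per kb of exon in all 6 libraries. Its counts were 25 and 9 in M0, 123 and 112 in M1 and, in M2, 18 and 6. Both M1 libraries were above the other 4, and the neighbours among those 4 did not differ beyond counting error. M1 exceeded M0 by 2.55 (1.92 to 3.23) in control and 4.09 (3.11 to 5.26) with regorafenib. Both ratios are smaller with 1 CPM added to both values, as the M0 levels, 0.814 and 0.273 CPM, lie under 1 CPM.

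The makeup of the family changed with the state. Per kb of exon, Vegfb made up 81.1% of the summed level of the 4 VEGF ligands in M0 control, 87% in M0 with regorafenib, 73.7% in M2 control and 83.2% in M2 with regorafenib. In M1 its share was 3.49% in control and 6.12% with regorafenib, and Vegfa held 77.8% and 64.7% instead. The share of Vegfa elsewhere ran from 1.24% in M2 control to 10.6% in M0 with regorafenib. Vegfc held 16.3% and 25.6% in the M1 libraries, 11.1% and 1.96% in M0, and 24% and 12.1% in M2. The count ratio of Vegfa to Vegfb, which no scaling between libraries touches, was 59.5 in M1 control and 28.3 in M1 with regorafenib, and at most 0.324 in the other 4 libraries.

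**Figure D2:**
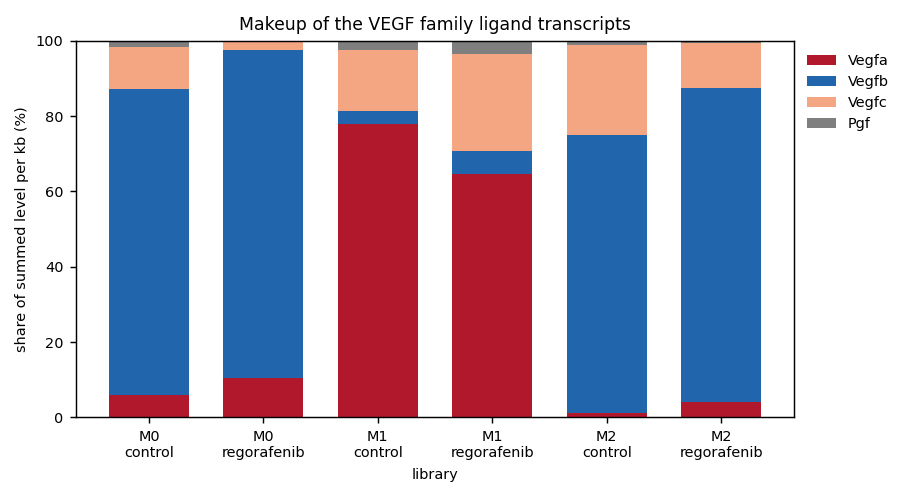
Share of each of the 4 VEGF family ligands in their summed level per kb of exon, in percent, with 1 stacked bar for each library. Vegfb makes up 73.7% to 87% of the bars in M0 and M2, and Vegfa makes up 77.8% and 64.7% of the bars in M1.

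Of the PDGF ligands, Pdgfa was lower in M1 in both arms and Pdgfb in control. Pdgfa (chr5:138976014-138997370, minus strand) had 761 and 506 counts in M0, 100 and 62 in M1 and, in M2, 1204 and 639, so that both M1 libraries were the lowest. Its log2 ratio of M1 to M0 was -2.68 (-2.99 to -2.38) in control and -2.58 (-2.98 to -2.19) with regorafenib, and that of M2 to M0 was 0.41 and 0.57. Of the exon bases of Pdgfa, 813 (26.1%) overlap the antisense gene 6330403L08Rik, which had 48 to 448 counts. The libraries were stranded, but which strand the counts hold is not given in the sources used here, and the part of the antisense gene in these values was not tested.

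Pdgfb (chr15:79995874-80014977, minus strand) had 2233 and 1563 counts in M0, 852 and 1189 in M1 and, in M2, 2811 and 1694. The M1 control library was the lowest at 33 CPM, while M1 with regorafenib, at 49.3 CPM, did not differ from M0 with regorafenib, at 47.4 CPM, beyond counting error. The log2 ratio of M1 to M0 was therefore -1.14 (-1.26 to -1.03) in control and 0.06 (-0.05 to 0.17) with regorafenib. With scaling by total counts the latter was -0.36, so its direction depends on the scaling. Pdgfb had the higher level per kb of exon in every library, and the count ratio of Pdgfb to Pdgfa was 2.33 to 3.09 in M0 and M2, 8.52 in M1 control and 19.2 in M1 with regorafenib.

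Hbegf (chr18:36504927-36515805, minus strand), which is shed from the membrane to activate the EGF receptor, was near the limit of detection in M0. Its counts were 6 and 5 in M0, 69 and 93 in M1 and, in M2, 175 and 30. Scaled, it stood at 0.195 and 0.152 CPM in M0, 2.67 and 3.86 CPM in M1 and, in M2, 4.79 and 1.07 CPM. Like Vegfc, it was called higher in all 4 comparisons with M0, of which the smallest log2 ratio was 2.82 (1.44 to 4.54) for M2 with regorafenib, which was 0.85 and not called with 1 CPM added to both values. The largest were 4.67 (3.40 to 6.33) for M1 with regorafenib and 4.62 (3.47 to 6.08) for M2 control, and the width of these intervals reflects the 5 or 6 counts in M0. Both ratios are also smaller with 1 CPM added to both values, as the M0 levels lie under 1 CPM.

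Nrp2 (chr1:62703285-62818695, plus strand) was the member with the highest level per kb of exon in each of the 6 libraries, and also the steadiest. Its counts ran from 17657 in M2 with regorafenib to 24902 in M1 control, and its levels were 766 and 647 CPM in M0, 964 and 999 CPM in M1 and, in M2, 594 and 631 CPM. With TMM the largest of its 7 log2 ratios was 0.63 (0.60 to 0.65), for M1 to M0 with regorafenib. Scaling by total counts lowers this ratio, as the TMM factor was 0.844 in M1 with regorafenib and 1.12 in M0 with regorafenib. The ratio of M1 to M0 in control was 0.33 with TMM and -0.11 with scaling by total counts, so that its direction there depends on the scaling.

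Nrp1 (chr8:128358604-128503363, plus strand) was high in M0 and M2 and low in M1. It had 7246 and 4630 counts in M0, 1208 and 974 in M1 and, in M2, 9357 and 4716. The log2 ratio of M1 to M0 was -2.33 (-2.42 to -2.25) in control and -1.80 (-1.90 to -1.70) with regorafenib. The count ratio of Nrp1 to Nrp2 was 0.308 and 0.217 in M0, 0.0485 and 0.0405 in M1 and, in M2, 0.431 and 0.267, so the balance of the co-receptors moved toward Nrp2 in both M1 libraries whatever the scaling.

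Thbs1 (chr2:118111876-118127133, plus strand) showed the largest difference of the set. Its counts were 62 and 334 in M0, 6648 and 4275 in M1 and, in M2, 82 and 113, which is 2.02 and 10.1 CPM, 257 and 177 CPM, and 2.25 and 4.04 CPM. Both M1 libraries stood far above the other 4, and M0 control and M2 control did not differ beyond counting error. The log2 ratio of M1 to M0 was 6.99 (6.63 to 7.38), or 127-fold, in control and 4.13 (3.97 to 4.29), or 17.5-fold, with regorafenib. Platelets also store thrombospondin 1, and the summed level of 8 megakaryocyte and platelet markers was 77.2 and 56.1 CPM in M1 against 2.97 to 12.8 CPM elsewhere. Of these markers 4 passed the filter, and all 4 were called higher for M1 against M0 in both arms, beside 34.1% and 34.7% of all genes. Among the control libraries Gp6, Itga2b and Ppbp reached the 10 counts of the filter in M1 only. The filter thus favours genes that are high in M1, so the 4 calls only describe these genes. In control Pf4, the highest, went from 385 to 1692 counts, Gp6 from 0 to 266, Itga2b from 7 to 24 and Ppbp from 1 to 12. Of the other markers, Gp1ba, Gp1bb and Gp9 were at 3 or fewer counts in all 6 libraries. The part of such cells in the level of Thbs1 was not tested. In these bulk libraries a change in the share of a cell type and a change in RNA per cell cannot be told apart.

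**Figure D3:**
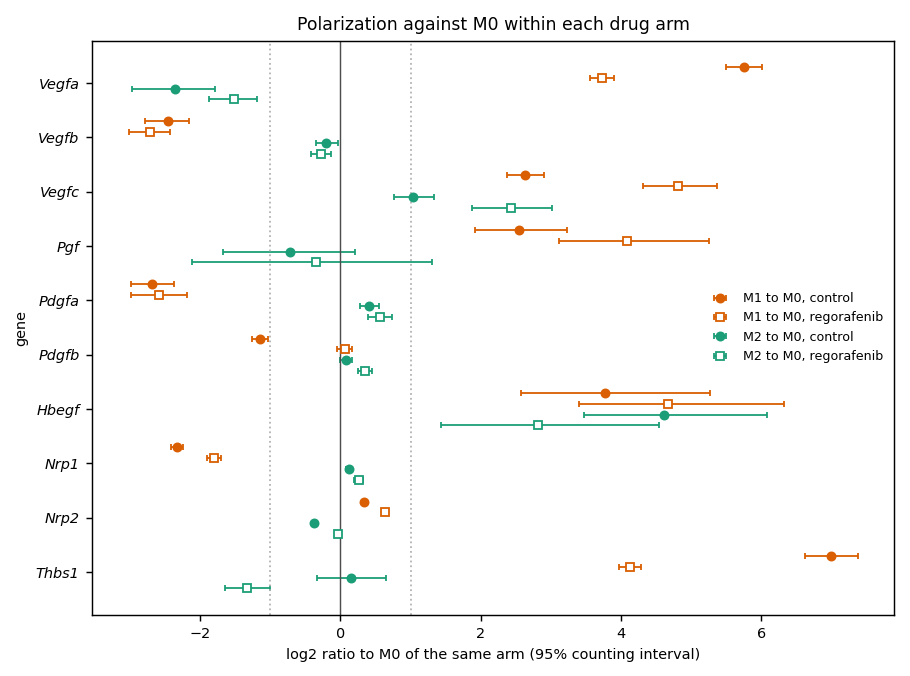
Log2 ratio of M1 to M0 (orange) and of M2 to M0 (green) for each gene, with filled points for the control arm, open points for the regorafenib arm, bars for the 95% counting interval and dotted lines at the 2-fold limit. Thbs1 and Vegfa reach 6.99 and 5.75 in M1 control, Vegfb, Pdgfa and Nrp1 lie below -1 in M1 in both arms, and the M2 ratios past the 2-fold limit are those of Vegfa, Vegfc, Hbegf and, with regorafenib, Thbs1.

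Polarization with IL4 moved fewer of the genes. In control 3 of the 10 were called, with Vegfa lower and Vegfc and Hbegf higher, beside 10.2% of all genes. With regorafenib 4 were called, the same 3 genes in the same directions and Thbs1, which was lower at a log2 ratio of -1.33 (-1.65 to -1.01), beside 7.58% of all genes. Of these calls, Vegfc in control and Hbegf with regorafenib were lost with 1 CPM added to both values. The median log2 ratio of the 10 genes was 0.10 and 0.11, against 0.00 and -0.03 over all genes tested.

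Libraries stood as replicates of each other only in an additive fit of state and drug over all 6 libraries, in which what the arms do not share counts as error. By edgeR's quasi-likelihood test in that fit, 8 of the 10 genes passed an adjusted p under 0.05 for M1 against M0, beside 36.7% of 14110 genes. The adjusted p ran from 0.000915 for Pdgfa to 0.00991 for Hbegf, and it was 0.0796 for Nrp2 and 0.287 for Pdgfb. The fitted log2 change was 4.94 for Vegfa, 5.53 for Thbs1, 4.37 for Hbegf, 3.67 for Vegfc and 3.30 for Pgf, and -2.53 for Vegfb, -2.57 for Pdgfa and -2.0 for Nrp1. Leaving out 1 library moved the changes of the higher genes. That of Vegfa ran from 3.62 without M1 control to 5.98 without M1 with regorafenib, and that of Hbegf from 3.25 without M1 with regorafenib to 5.54 without M1 control. The change of Thbs1 ran from 4.46 without M1 control to 6.78 without M0 with regorafenib, that of Vegfc from 2.89 without M0 with regorafenib to 4.69 without M0 control, and that of Pgf from 2.66 without M1 with regorafenib to 4.02 without M1 control. The 8 genes kept an adjusted p under 0.05 in each of these edgeR fits, the highest being 0.0161 for Hbegf. For M2 against M0, 0 of the 10 passed, beside 0.198% of all genes. In edgeR's fit 4 members had an unadjusted p under 0.05, namely Hbegf at 0.00329, Vegfc at 0.0228, Vegfa at 0.0367 and Pdgfa at 0.0441, and the adjusted p of Hbegf was 0.167. With DESeq2 Hbegf passed, at an adjusted p of 0.000496 and a log2 change of 3.92.

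The effect of regorafenib was then compared within each state. In M0, Vegfa and Thbs1 were higher and Vegfc and Pgf were lower with the drug, so that 4 of the 10 genes were called, beside 17.4% of all genes. In M1, 0 of the 10 were called, beside 3.47% of all genes. In M2, Vegfa was higher and Hbegf lower, 2 of the 10, beside 8.86% of all genes. For M0, M1 and M2 the 10 genes had a median log2 ratio of -0.49, -0.01 and -0.44, against -0.01, -0.02 and -0.01 over all genes tested. These ratios use the same control libraries as the comparisons of states, so the sets of values are not independent.

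Vegfa went from 134 to 312 counts with regorafenib in M0, a log2 ratio of 1.12 (0.82 to 1.42). It went from 31 to 92 counts in M2, a ratio of 1.95 (1.35 to 2.59), and from 6070 to 3026 counts in M1, a ratio of -0.90 (-0.97 to -0.84). The level was thus higher with the drug where it was low and lower with the drug where it was high. With 1 CPM added to both values the ratio in M0 was 0.96 and no longer passed the 2-fold limit. Thbs1 showed the same signs, with 2.33 (1.93 to 2.74) in M0, 0.85 (0.42 to 1.28) in M2 and -0.54 (-0.59 to -0.48) in M1, of which only the ratio in M0 was called. Markers of other cell types also moved with the drug in M0. Of 9 fibroblast markers 3 were called higher there and 1 lower, beside 17.4% of all genes, with a median log2 ratio of 1.07. Their summed level was 12.5 CPM in M0 control and 27 CPM in M0 with regorafenib. Col1a1 went from 37 to 114 counts, Col1a2 from 46 to 188 and Acta2 from 49 to 155, and Thy1 from 14 to 4. The sum was 27.4 and 33.9 CPM in M1, where 0 were higher and 1 lower, beside 3.47% of all genes. It was 12 and 21.9 CPM in M2, where Pdgfrb alone was called, higher, beside 8.86% of all genes. Neutrophil markers summed to 110 and 207 CPM in M0, with 0 of 5 called, and endothelial markers to 39.7 and 19.9 CPM, with 1 of 5 higher and 2 lower. Megakaryocyte and platelet markers summed to 12.8 and 2.97 CPM there, with 0 of 4 higher and 1 lower, which was Pf4, from 385 to 85 counts. The share over all genes in M0 was 17.4%. The part of these markers in the drug ratios of the members was not tested.

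Vegfc fell in count from 140 to 33 with regorafenib in M0, a log2 ratio of -2.19 (-2.78 to -1.63), and from 343 to 151 in M2, a ratio of -0.80 (-1.09 to -0.52). In M1 its ratio was 0.00 (-0.15 to 0.16). Pgf was lower with regorafenib in M0, at -1.58 (-2.86 to -0.43), which rests on 25 and 9 counts and was -0.51 with 1 CPM added to both values. Its ratio was -1.20 (-2.82 to 0.19) in M2, from 18 and 6 counts, and -0.03 (-0.42 to 0.35) in M1.

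Among the 10 genes Hbegf had the largest drug difference of M2, from 175 to 30 counts, a log2 ratio of -2.16 (-2.77 to -1.60). In M1 the ratio was 0.53 (0.07 to 1.0), and in M0, with 6 and 5 counts, the interval ran from -2.42 to 1.61, so that a 2-fold difference was not detectable there in either direction. Vegfb stayed under the 2-fold limit, with M0 at 0.42 (0.28 to 0.57), M1 at 0.17 (-0.24 to 0.58) and M2 at 0.35 (0.19 to 0.50).

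Pdgfa, Pdgfb and Nrp1 had ratios under the 2-fold limit in all 3 states. For Pdgfa they were -0.69 (-0.86 to -0.53) in M0, -0.59 (-1.07 to -0.12) in M1 and -0.53 (-0.67 to -0.39) in M2, so the control library was the higher in each pair. Nrp1 was also lower in each pair, at -0.75 (-0.80 to -0.69) in M0, -0.21 (-0.33 to -0.09) in M1 and -0.60 (-0.66 to -0.55) in M2. Pdgfb had -0.62 (-0.71 to -0.52) in M0 and -0.35 (-0.43 to -0.26) in M2, but 0.58 (0.45 to 0.71) in M1. The ratios of Nrp2 were -0.24, 0.05 and 0.09.

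**Figure D4:**
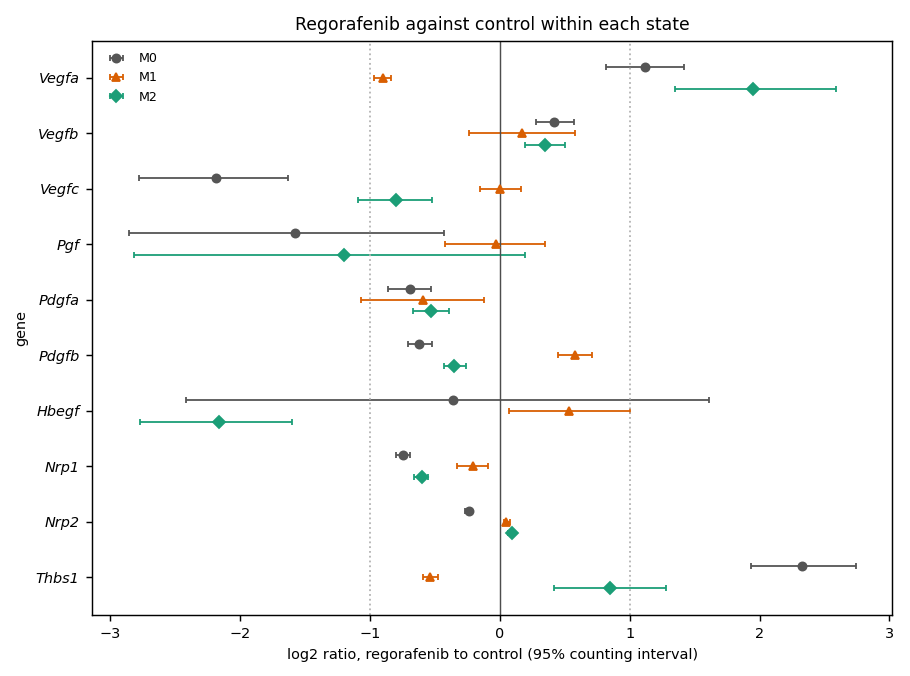
Log2 ratio of regorafenib to control for each gene in M0 (grey circles), M1 (orange triangles) and M2 (green diamonds), with bars for the 95% counting interval and dotted lines at the 2-fold limit. Vegfa and Thbs1 lie above 0 in M0 and M2 and below 0 in M1, Vegfc and Pgf in M0 and Hbegf and Pgf in M2 lie below -1, the last with an interval that spans 0, and no M1 point passes the 2-fold limit.

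Across the 3 states, edgeR's quasi-likelihood test called 0 of the 10 genes for regorafenib, beside 0% of all genes, and 1637 of the 14110 genes tested had an unadjusted p under 0.05. DESeq2 called 296 of 13150 genes and 0 of the members. Of the members, 2 had an unadjusted p under 0.05 by edgeR and 3 by DESeq2, which were Pdgfa and Nrp1 in both and Vegfc (0.0282) by DESeq2. By edgeR Pdgfa had the lowest, 0.0123 with an adjusted p of 0.362 and a fitted log2 change of -0.59, and it was lower in 3 of 3 states. Nrp1 followed with 0.0168, an adjusted p of 0.385 and a change of -0.51, also lower in 3 of 3 states. Vegfa and Thbs1, whose ratios had opposite signs between states, had fitted changes of 0.57 and 0.79 and adjusted p of 0.626 and 0.523. Both changes depended on the libraries in the fit. That of Vegfa was 0.20 without either M0 library, 0.07 without either M2 library, 1.47 without M1 control and 1.45 without M1 with regorafenib. That of Thbs1 was 0.07 without either M0 library, 1.62 without either M1 library, and 0.79 and 0.80 without M2 control and M2 with regorafenib. The fits without M1 control and without M1 with regorafenib are not separate results. In both, the M1 library that stays is fitted by its own state term, so the drug change rests on the M0 and M2 libraries.

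The other VEGF and PDGF ligands and the receptors of the set were taken from lists. Of 9 VEGF and PDGF ligands 7 passed the filter, and Vegfd and Pdgfd did not. Pdgfc, the PDGF ligand outside the set, had 227 counts in M0 control and 1179 in M0 with regorafenib, a log2 ratio of 2.27 (2.07 to 2.49). It was at 7 and 11 counts in M1 and 1379 and 1327 in M2, with a log2 ratio of M1 to M0 of -4.77 (-6.10 to -3.70) in control. All 7 ligands of the list were called for M1 against M0 in control, 3 higher and 4 lower, beside 34.1% of all genes. Of these ligands 6 are members already counted above, and Pdgfc alone is added by the list.

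Of the 5 receptors, Flt1, which binds VEGFA, VEGFB and PGF, had 478 and 234 counts in M0, 37 and 10 in M1 and, in M2, 6879 and 3014. Its log2 ratio was -3.44 (-3.97 to -2.96) for M1 to M0 in control and 3.60 (3.46 to 3.73) for M2 to M0 in control. Its highest level was thus in M2, where Vegfa was lowest. Regorafenib gave a ratio of -1.13 (-1.36 to -0.90) in M0, -1.79 (-2.96 to -0.75) in M1 and -0.81 (-0.87 to -0.74) in M2. Kdr, the main signaling receptor of VEGFA, went from 1144 to 588 counts in M0 and from 906 to 246 in M2, ratios of -1.06 (-1.21 to -0.92) and -1.50 (-1.71 to -1.29), and from 377 to 641 in M1, a ratio of 0.87 (0.68 to 1.05). Pdgfrb, which binds PDGF-BB, had 229 and 375 counts in M2, a ratio of 1.10 (0.85 to 1.34). Of the 5 receptors, 2 were lower in M0, 1 was lower in M1, and 1 was higher and 1 lower in M2, where 17.4%, 3.47% and 8.86% of all genes were called.

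Of 12 neuropilin partners, plexins and class 3 semaphorins, 7 passed the filter. With regorafenib 1 of the 7 was lower in M0 and 1 in M2, which was Sema3c in both cases, beside 17.4% and 8.86% of all genes. It went from 632 to 82 counts in M0, a log2 ratio of -3.05 (-3.40 to -2.71), and from 2193 to 257 in M2, a ratio of -2.71 (-2.90 to -2.52). For M1 against M0 in control, Sema3d had 0 and 232 counts, at least 91.9-fold higher when 3 counts are taken for M0 control. Sema3c was higher at 2.24 (2.12 to 2.37), and the plexin Plxna2 was lower at -2.34 (-2.56 to -2.12).

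Among 10 thrombospondins and their receptors, Cd36, the scavenger receptor through which thrombospondin 1 acts on endothelium, was lower with regorafenib in M0 at -1.29 (-1.35 to -1.23) and in M2 at -1.91 (-1.95 to -1.88), with 51853 and 10537 counts in M2. Comp, the thrombospondin family member of cartilage, was higher in both states, at 1.23 (0.82 to 1.66) and 1.74 (1.33 to 2.17). In all, 3 of the 10 were higher and 2 lower in M0, 0 were called in M1, and 1 was higher and 2 lower in M2, with 17.4%, 3.47% and 8.86% of all genes called. For M1 against M0 in control, 3 were higher and 3 lower, beside 34.1% of all genes. Cd47 was higher at 1.20 (1.15 to 1.25) and the syndecan Sdc4 at 2.83 (2.76 to 2.90), and the endocytic receptor Lrp1 was lower at -1.41 (-1.43 to -1.39), with 88835 and 28104 counts.

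Of 18 other EGF family ligands, receptors and sheddases 12 passed the filter, and for M1 against M0 in control 6 were higher and 3 lower, beside 34.1% of all genes. Ereg, another EGF receptor ligand, had 0 and 192 counts there, at least 76.1-fold higher when 3 counts are taken for M0 control. Rhbdf2, which takes the sheddase ADAM17 to the surface, was higher at 2.03 (1.96 to 2.10), and Cd9, a membrane partner of HBEGF, was lower at -1.95 (-1.99 to -1.90). With regorafenib 1 gene of the list was higher and 1 lower in M0, and 1 was higher in M1 and in M2, each with fewer than 100 counts in both libraries, beside 17.4%, 3.47% and 8.86% of all genes. No sheddase or ligand of the list was called lower beside Hbegf in M2.

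Hypoxia-inducible factors are known to raise Vegfa. Of 20 of their regulators and targets, a list without Vegfa, 15 were higher and 1 lower for M1 against M0 in control, and 14 were higher and 1 lower with regorafenib, beside 34.1% and 34.7% of all genes called in either direction. Egln3, a prolyl hydroxylase that marks the factors for decay, was higher at 6.09 (5.73 to 6.47). Adm, the vasodilator adrenomedullin, had 0 and 955 counts, at least 378-fold higher when 3 counts are taken for M0 control. Epas1, the HIF-2α gene, was lower at -4.84 (-5.76 to -4.05), with 442 and 13 counts. For M2 against M0, 0 were higher and 1 was lower in each arm, beside 10.2% of all genes in control and 7.58% with regorafenib.

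With regorafenib 5 of the 20 genes were lower and 0 higher in M0, beside 17.4% of all genes called in either direction. The lower genes included Ankrd37 at -2.25 (-2.82 to -1.71), and the glycolytic enzymes Pgk1 at -1.33 (-1.37 to -1.30) and Ldha at -1.31 (-1.34 to -1.28). In M1 and in M2, 1 of the 20 was lower and 0 were higher, beside 3.47% and 8.86% of all genes, and in M2 this was Ankrd37 at -1.39 (-1.87 to -0.93). The median log2 ratio of the list was -0.36 in each of the 3 states.

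Of 20 genes that respond to ERK signaling, which growth factor receptors activate, 7 were lower and 0 higher with regorafenib in M0, beside 17.4% of all genes called in either direction, and the others did not pass. Fosl1, an AP-1 subunit, had 120 and 7 counts, a log2 ratio of -4.20 (-5.55 to -3.11). The growth regulator Myc was lower at -2.67 (-2.89 to -2.45), and Etv5 at -2.27 (-2.42 to -2.12). In M1, 1 of the 20 was lower and 0 higher, and in M2, 1 was higher and 1 lower, beside 3.47% and 8.86% of all genes. Vegfc and Pgf were the members called lower in M0 beside this list.

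Of 23 other secreted angiogenic factors 20 passed the filter, and with regorafenib 5 were higher and 6 lower in M0, 1 was higher in M1, and 2 were higher and 1 lower in M2, with 17.4%, 3.47% and 8.86% of all genes called. Hgf, the ligand of MET, was higher in M0 at 1.81 (1.59 to 2.03), while the protease Plau at -2.20 (-2.27 to -2.12) and the cytokine Tnf at -1.81 (-1.94 to -1.68) were lower. Angpt2, which loosens vessel walls through TEK, was lower in M2 at -1.48 (-1.90 to -1.08), with 233 and 64 counts. For M1 against M0 in control 8 of the 20 were higher and 7 lower, beside 34.1% of all genes, led by Il1b, which had 95 and 609592 counts. Edn1, the vasoconstrictor endothelin 1, had 0 and 860 counts there, at least 341-fold higher when 3 counts are taken for M0 control.

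Of 10 inhibitors of angiogenesis other than Thbs1, 7 were higher and 2 lower for M1 against M0 in control, and 6 were higher and 1 lower with regorafenib, beside 34.1% and 34.7% of all genes. The interferon-induced chemokine Cxcl9 had 0 and 15565 counts, at least 6168-fold higher when 3 counts are taken for M0 control, and Tnfsf15 was higher at 6.76 (5.91 to 7.77). With regorafenib 3 were higher and 4 lower in M0, 1 was higher in M1, and 0 were higher and 3 lower in M2, beside 17.4%, 3.47% and 8.86% of all genes. In M2 Adamts1, a protease that binds VEGFA, was at -1.98 (-2.19 to -1.78) and Col18a1, the source of endostatin, at -1.13 (-1.19 to -1.08). Adamts1 was at -1.23 (-1.47 to -1.0) in M0 and at -0.33 (-0.43 to -0.22) in M1, the latter short of the 2-fold limit.

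Of 10002 genes with a mean of at least 5 CPM, the genes whose log2 levels ran most like a member's over the 6 libraries were named by Pearson's r, as a description of 6 libraries that share the contrast of M1 with the other states. For Vegfa they were Apaf1, Slc31a1 and Tmem170b, with r of 0.998, 0.997 and 0.997. For Thbs1 they were Lrmda, H2-Q5 and Ppfibp2, at 0.999, 0.998 and 0.998. For Hbegf, whose levels did not follow that contrast alone, they were Lins1, Dynlt3 and Tmem230, at 0.992, 0.989 and 0.986.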

How the data were processed

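RNA of 6 libraries was prepared with an Illumina TruSeq Stranded mRNA kit. The authors trimmed the reads with cutadapt 2.4, mapped them to GRCm38 with STAR 2.7.2a and deposited whole-number read counts per gene on Gencode M19. These counts are not normalized, and the strand they hold is not given in the sources used here. Of 54446 gene IDs, 53229 matched Gencode M21 names with their version and 1180 without it, and 37 had no name. The members and lists were chosen with earlier results of these data known.

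Counts were scaled with TMM in edgeR 4.0.16 (R 4.3.3), and the 14917 genes that reached 10 counts somewhere were compared. A count of 0 was replaced by 0.5. A gene was called at an absolute log2 ratio of at least 1 with a 95% conditional exact binomial interval of the counts that left out 0. This replaced NOISeq, which the study used without replicates. The interval of a level is the exact Poisson interval, and 3 or fewer counts in a library were taken as the floor. With 25359309 to 34898342 counts in a library, the floor was 0.086 to 0.118 CPM. The additive fit of state and drug used glmQLFit on genes kept by filterByExpr, with Benjamini-Hochberg adjustment over all 14110 genes, and DESeq2 1.42.0 was an alternative. Where no separate cultures are named, its p-values measure only the spread between these libraries. Levels per kb used the union of Gencode exons. No 100-base word of a member's transcripts occurred in another gene's transcripts, each read on its own strand, which leaves out antisense overlaps.

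Named genes were the 10 members and, from each list without markers, up to 3 called genes with the largest ratios for regorafenib in M0 and in M2 and for M1 against M0 in control, provided that 1 of both libraries reached 100 counts. The values of Pdgfc, Flt1, Kdr and Pdgfrb in further comparisons, and single marker genes, were added after their values were seen. The 3 most similar genes were named for each member described. The lists cover VEGF and PDGF ligands and receptors, neuropilin partners, the EGF family, thrombospondins and their receptors, other angiogenic factors and inhibitors, HIF and ERK genes, and markers. The counting interval was tested on Poisson counts drawn with known ratios, which hold no spread between cultures. The additive fit was tested on counts simulated with the same drug change in each state and no differences between states. These tests do not cover variation between cultures in a pair of libraries, or drug responses that differ between states. Start regions came from RefSeq on GRCm38.p6 (Python 3.11.15, scipy 1.17.1, pandas 2.3.3, matplotlib 3.10.9).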

Additional observations from a re-analysis of the deposited data

Results flagged for a closer look

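The log2 ratio of regorafenib to control had opposite signs in a pair of states for 5 members, counting only ratios whose intervals both left out 0, with 1 library on each side, so the difference was not tested across samples and its interval covers counting error only. For Vegfa the ratio in M0 exceeded that in M1 by 2.02 (95% interval 1.72 to 2.32), and the ratio in M2 exceeded that in M1 by 2.86 (2.27 to 3.45). For Thbs1 the same differences were 2.86 (2.47 to 3.26) for M0 minus M1 and 1.38 (0.97 to 1.80) for M2 minus M1. For Hbegf the difference was -2.69 (-3.41 to -1.97) for M2 minus M1. For Pdgfb it was -1.20 (-1.36 to -1.04) for M0 minus M1 and -0.93 (-1.08 to -0.77) for M2 minus M1. For Nrp2 it was -0.29 (-0.33 to -0.26) for M0 minus M1 and -0.33 (-0.37 to -0.29) for M0 minus M2. The differences of Vegfa and of Thbs1 that involve M1 share the 2 M1 libraries, so they are not independent of each other.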

How the results depend on the processing

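The limits are 1 library per condition and few counts for Pgf and Hbegf. In the pairs of libraries, 1 CPM added to both values left 2 of the 10 genes called for regorafenib in M0 in place of 4, and a limit of 1.5-fold gave 7, 2 and 5 genes for M0, M1 and M2 in place of 4, 0 and 2. With 1 CPM added, Vegfc for M2 against M0 in control and Hbegf for M2 against M0 with regorafenib (0.85 in place of 2.82) also missed the limit. Scaling by DESeq2 size factors kept the number of members called within 1.5 times in all 7 comparisons, as did fold alone and no filter. Scaling by total counts turned the sign of 4 uncalled ratios, namely Pgf for regorafenib in M1 (0.01), Nrp2 (-0.11) for M1 and Pdgfb (-0.01) for M2 against M0 in control, and Pdgfb (-0.36) for M1 against M0 with regorafenib.

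Over all genes, 1 CPM added gave 1495, 154 and 565 calls for regorafenib in M0, M1 and M2 in place of 2596, 518 and 1322, and 780 and 451 for M2 against M0 in control and with regorafenib in place of 1519 and 1130. A limit of 1.5-fold gave 4732, 1102, 2805, 2638 and 2210 in the same order. Fold alone gave 1185 for regorafenib in M1 and 1713 for M2 against M0 with regorafenib.

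In the additive fit, leaving out a library gave 0 to 1 members for regorafenib and 0 to 2 for M2 against M0, and 8 to 9 for M1 against M0 (Pdgfb added without M1 with regorafenib), while DESeq2 added Nrp2 for M1. For M2 against M0, DESeq2 called 1 member and no filter 1, Hbegf in both. Vegfc was called without M0 control, Hbegf without M1 control or M2 with regorafenib, and Hbegf and Vegfa without M1 with regorafenib. Over all genes the count for regorafenib was 0 by edgeR, 296 by DESeq2, 333 with no filter, 726 without M1 control, 814 without M1 with regorafenib and 0 to 4 without another library. That for M2 against M0 was 28, 413 by DESeq2, 408 with no filter and 77 to 294 without a library. Uncalled changes turned sign when 1 library was left out, with these ranges over the 6 libraries. For regorafenib they ran from -0.47 (without either M1 library) to 0.13 (without either M0 library) for Pdgfb, from -0.09 (without either M2 library) to 0.09 (without either M0 library) for Nrp2, and from -1.75 (without either M1 library) to 0.28 (without M2 with regorafenib, 0.27 without M2 control) for Hbegf. For M1 against M0 Pdgfb ran from -1.01 (without M1 with regorafenib) to 0.05 (without M1 control). For M2 against M0 the ranges were -1.0 to 0.18 for Pgf, -0.12 to 0.62 for Pdgfb and -1.66 to 0.60 for Thbs1, each set by the M0 libraries. The cause was not tested.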
